A study of Rattus norvegicus with 8 samples.

Results

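Expression of the metalloproteinase inhibitors Timp1, Timp2, Timp3, Timp4 and Reck was examined in the outflow veins of rat arteriovenous fistulas (AVFs). These 5 genes were matched by name among 32623 listed rat Ensembl genes, and all 5 were among the 11682 genes tested. Sprague Dawley rats received an AVF in which the epigastric vein was sewn to the femoral artery, and a polymer nanofiber scaffold was wrapped round the vein next to the anastomosis. In the BAPN group (4 rats, 3 females and 1 male) the scaffold carried β-aminopropionitrile, an irreversible inhibitor of lysyl oxidases, the enzymes that crosslink elastin and collagen fibers. In the vehicle group (4 rats, 2 females and 2 males) a scaffold of the same polymers carried no BAPN, so every vein had the AVF and a scaffold, and unoperated veins were not analysed here. Ages and genotypes were not given in the sources used here. The veins were taken on day 21 and RNA of the whole vessel was sequenced, with the aim of learning how periadventitial lysyl oxidase inhibition changes gene expression of the AVF.

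TIMPs are small secreted proteins that block the active site of matrix metalloproteinases (MMPs), the enzymes that cut collagens, elastin and other matrix proteins. Timp2 also takes part in the activation of proMMP2 by Mmp14 at the cell surface, Timp3 stays bound to the matrix and inhibits ADAM and ADAMTS proteases as well, and Timp1 is well known as a gene induced by cytokines and growth factors. Reck is a membrane-anchored glycoprotein that inhibits several MMPs and, with the receptor Adgra2, serves Wnt7 signaling in the endothelium. Timp1, Timp3 and Timp4 each lie within a synapsin gene (Syn1, Syn3 and Syn2, in this order) in the RefSeq annotation of assembly GRCr8.

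In the BAPN veins, the transcripts of Reck were 1.92 times lower than in the vehicle veins, and Reck was the only member that edgeR, the main test, placed past the threshold of an FDR below 0.05. Timp2 and Timp3 were lower in every BAPN rat than in every vehicle rat but missed that threshold in edgeR, and Timp1, with a higher mean in the BAPN group, and Timp4, with a lower mean, overlapped between the groups. DESeq2, run as an alternative, also placed Timp1 (FDR 0.0385), Timp2 (FDR 0.0144) and Timp3 (FDR 0.0126) past it. The ratio of Timp1 to each of the other 4 members was higher in every BAPN rat than in every vehicle rat, as were 27.9% of its ratios to the 11681 other tested genes. Over all tested genes, 16.8% were called in either direction, 9.25% lower and 7.5% higher with BAPN, and in 24.7% the groups did not overlap. Among the 5 members, 1 was called by edgeR (lower) and 3 did not overlap between the groups.

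The promoter sequences of Timp1, Timp2, Timp3 and Reck are shown because the fold change of Timp1 had the opposite sign from those of the other members. The change of Timp1 was not called by edgeR (FDR 0.0839). The promoter of Timp4 was searched in the same way, but its sequence is not printed. Each printed sequence is the stretch of 120 bases before the annotated transcription start, read 5′ to 3′ on the strand of the gene, from RefSeq (GRCr8), in which all 5 members had an entry. They lie at chrX:3771123-3771242 (minus strand), chr10:104089215-104089334 (minus strand), chr7:19459559-19459678 (minus strand) and chr5:62898597-62898716 (plus strand), in the order printed. Capitals mark every match on either strand to the searched letters, which were AP-1 (TGANTCA), the AP-1 variant TGAGTAA, the ETS element PEA3 (AGGAAG), Runx (TGTGGT), the GC box (GGGCGG, read CCGCCC on the opposite strand) and the TATA box (TATAAA).
Timp1: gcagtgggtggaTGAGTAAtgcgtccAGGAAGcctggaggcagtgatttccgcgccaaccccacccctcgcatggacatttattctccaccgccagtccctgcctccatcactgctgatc
Timp2: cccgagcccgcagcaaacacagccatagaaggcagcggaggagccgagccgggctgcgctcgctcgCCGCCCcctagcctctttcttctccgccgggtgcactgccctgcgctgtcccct
Timp3: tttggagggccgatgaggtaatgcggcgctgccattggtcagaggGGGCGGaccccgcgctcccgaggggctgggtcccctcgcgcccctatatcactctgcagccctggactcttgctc
Reck: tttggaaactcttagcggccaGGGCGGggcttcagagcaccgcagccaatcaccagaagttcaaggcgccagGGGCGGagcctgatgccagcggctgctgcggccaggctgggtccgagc

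The AP-1 variant TGAGTAA stood 108 to 102 bases before the start of Timp1, close to an AGGAAG at 94 to 89, and it was found in no other member. Over 250 bases before the start of each of 27457 RefSeq genes, TGAGTAA was found in 2.25% and AGGAAG in 29.4%. A second AGGAAG lay 230 to 225 bases before the start of Timp1, and Timp4 held AGGAAG on the opposite strand at 158 to 153. The GC box was found in 4 members (Timp1, Timp2, Timp3 and Reck) and in 32.4% of all promoters, with 3 matches each in Timp3 and Reck. TGANTCA (6.36% of promoters), TGTGGT (14.1%) and TATAAA (13.1%) had no match in any member in this window. GC content over the same 250 bases was 72.0% in Timp2, 69.6% in Timp3, 68.4% in Reck, 61.2% in Timp1 and 50.8% in Timp4, against a median of 52.0% over all promoters. CpG dinucleotides numbered 27, 23, 20, 9 and 4 in the same order, with a median of 6 over all promoters. These matches are descriptions of letters, and no binding was measured.

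Expression is given in CPM, the reads on a gene relative to the reads on all tested genes of its library after TMM normalization. Log2 fold changes compare BAPN with vehicle, and their standard errors (SE) are from limma-voom. The FDR is the p-value of edgeR's quasi-likelihood test after Benjamini-Hochberg adjustment over all 11682 tested genes, and exact p-values are from two-sided permutation tests over all 70 arrangements of the rats, which cannot go below 0.0286. CPM values are not divided by transcript length, so levels are compared between groups and not between genes.

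Reck (ENSRNOG00000014863), the membrane-anchored inhibitor, was at 41.0, 56.1, 35.3 and 40.0 CPM in BAPN 1 to 4. In Vehicle 1 to 4 it was at 109.8, 66.8, 58.4 and 96.5 CPM. The highest BAPN value (BAPN 2) lay just under the lowest vehicle value (Vehicle 3), while Vehicle 1 and Vehicle 4 stood far above every BAPN rat. The BAPN mean was 43.1 ± 9.03 CPM and the vehicle mean 82.9 ± 24.3 CPM (SD, n = 4 per group). Reck expression fell by 0.94 on the log2 scale (SE 0.22, edgeR FDR 0.0252, exact permutation p = 0.0286). The lower level was seen in both sexes, with 44.2 against 88.3 CPM in females and 40.0 CPM in the single BAPN male against 77.5 CPM in the vehicle males. The call was kept in 3 of the 8 fits with 1 rat left out, which also hold fewer rats. Why it was lost in the others was not tested. Leaving out BAPN 1 gave an edgeR FDR of 0.0528 (log2 fold change -0.92), leaving out BAPN 3 gave 0.0703 (-0.86), and leaving out BAPN 4 gave 0.0602 (-0.92). For Vehicle 1 left out the edgeR FDR was 0.0687 (-0.78), and for Vehicle 4 left out 0.0541 (-0.86). Among females alone it was 0.107, with a log2 fold change of -1.0. RNA of the whole vessel was measured, in which fewer cells of a type and less RNA per cell cannot be told apart.

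Timp3 (ENSRNOG00000004303), the matrix-bound inhibitor, was at 185, 228, 163 and 198 CPM in BAPN 1 to 4. The vehicle veins had 416, 249, 251 and 273 CPM in Vehicle 1 to 4. All BAPN rats lay below all vehicle rats, and Vehicle 1 stood far above the other vehicle rats. The means were 194 ± 27.1 and 297 ± 79.9 CPM (SD, n = 4 per group), with a log2 fold change of -0.62 (SE 0.19, edgeR FDR 0.055, exact permutation p = 0.0286). Without Vehicle 1 the log2 fold change was -0.41 (edgeR FDR 0.117), and without Vehicle 2 it was -0.69 (edgeR FDR 0.0466), past the threshold. In females the means were 192 CPM with BAPN and 333 CPM with vehicle, and in males 198 and 262 CPM.

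Timp2 (ENSRNOG00000003148), the partner of Mmp14 in proMMP2 activation, was at 778, 781, 625 and 701 CPM in BAPN 1 to 4. It was at 976, 900.5, 886 and 1361 CPM in Vehicle 1 to 4. The groups did not overlap, the vehicle rats other than Vehicle 4 lay close together, and Vehicle 4 was the highest. The BAPN mean was 721 ± 74.2 CPM and the vehicle mean 1031 ± 223 CPM (SD, n = 4 per group), with a log2 fold change of -0.52 (SE 0.18, edgeR FDR 0.0746, exact permutation p = 0.0286). Without Vehicle 4 the log2 fold change was -0.35, the smallest of the values with 1 rat left out. Its female means were 728 and 938 CPM and its male means 701 and 1123 CPM, with BAPN and vehicle in this order.

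Timp1 (ENSRNOG00000010208), the cytokine-inducible member, was at 466, 302, 333 and 226 CPM in BAPN 1 to 4. In Vehicle 1 to 4 it was at 240.4, 202, 132 and 243 CPM. The 3 BAPN females lay above every vehicle rat, whereas the BAPN male (BAPN 4) lay among them. The BAPN mean was 332 ± 100.3 CPM and the vehicle mean 204 ± 51.6 CPM (SD, n = 4 per group), so that the former was 1.62 times as high. The log2 fold change was 0.70 (SE 0.26, edgeR FDR 0.0839, exact permutation p = 0.0857). Leaving out BAPN 1 gave 0.49 and leaving out BAPN 4 gave 0.83, the ends of the range over single rats left out. By sex, the means were 367 against 221 CPM in females and 226 against 188 CPM in males.

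Timp4 (ENSRNOG00000007955), a TIMP best known from heart and blood vessels, had between 110 and 568 reads per library, fewer than the other members, and counting error is largest for it. The BAPN veins 1 to 4 had 11.8, 10.6, 5.0 and 2.3 CPM, and the vehicle veins 1 to 4 had 10.9, 10.4, 14.4 and 13.6 CPM. BAPN 1 and BAPN 2 lay among the vehicle rats, whereas BAPN 3 and BAPN 4 lay below them. The means were 7.41 ± 4.51 and 12.3 ± 1.95 CPM (SD, n = 4 per group), and the log2 fold change was -0.73 (SE 0.48, edgeR FDR 0.254, exact permutation p = 0.143). Without the male BAPN 4 the log2 fold change was -0.44, and among females alone (9.12 against 10.7 CPM) it was -0.23 (edgeR FDR 0.738). A test of whether the effect differed between the sexes gave a log2 difference, male minus female effect, of -2.38 for Timp4 (edgeR FDR 0.257) and between -0.46 and 0.39 for the other members (edgeR FDR between 0.773 and 0.984), with only 1 BAPN male. edgeR called 0 of the 11682 genes in this sex test, and 1442 had an unadjusted p under 0.05.

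**Figure D1:**
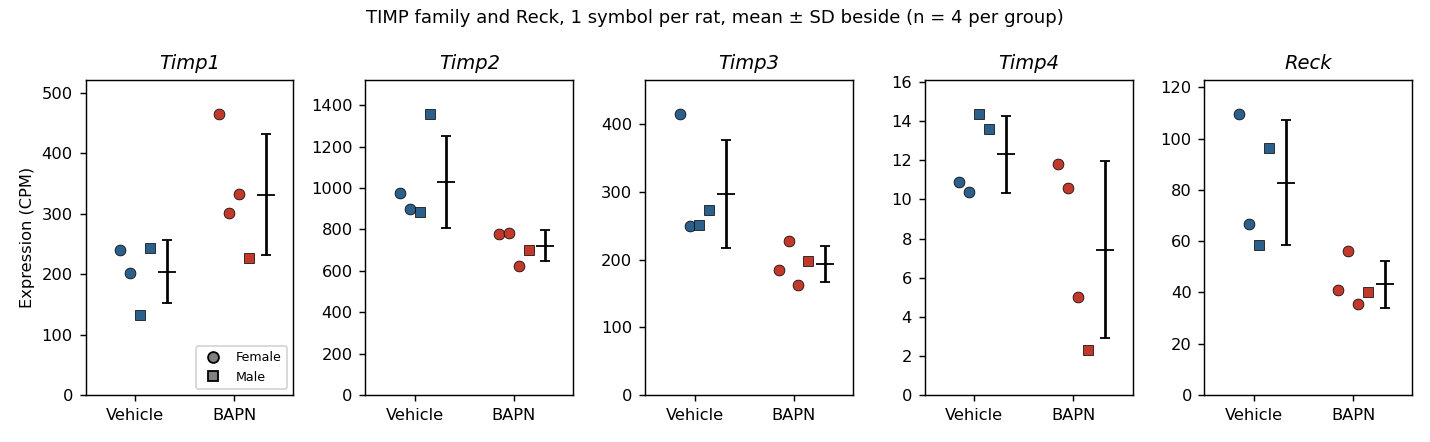
Expression (CPM, linear axes starting at 0) of Timp1, Timp2, Timp3, Timp4 and Reck in each rat, with circles for females, squares for males and bars for the mean ± SD of 4 rats. The BAPN rats lie below all vehicle rats for Timp2, Timp3 and Reck, BAPN 1 is highest for Timp1 (466 CPM), and Timp4 spreads from 2.3 to 11.8 CPM with BAPN.

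The spread between rats differed among the members. With BAPN the coefficient of variation (SD over mean) was 10.3% for Timp2, 14% for Timp3, 20.9% for Reck, 30.2% for Timp1 and 60.8% for Timp4. With vehicle it lay between 15.8% (Timp4) and 29.3% (Reck). No rat was extreme in all members: BAPN 1 was highest among the BAPN rats for Timp1 and Timp4, BAPN 3 was lowest for Timp2, Timp3 and Reck, Vehicle 1 was highest among the vehicle rats for Timp3 and Reck, and Vehicle 4 was highest for Timp1 and Timp2.

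The ratio of 2 members within a rat does not depend on how the libraries were scaled, so the log2 ratio of each pair was taken in each rat. Timp1 relative to Reck had log2 ratios of 3.50, 2.43, 3.24 and 2.50 in BAPN 1 to 4. In Vehicle 1 to 4 the same ratio was 1.13, 1.6, 1.18 and 1.33. The groups were well apart, with means of 2.92 ± 0.54 and 1.31 ± 0.21 (SD, n = 4 per group) and a difference of 1.61. Relative to Timp2, the log2 ratio of Timp1 in BAPN 1 to 4 was -0.74, -1.37, -0.91 and -1.63, against -2.02, -2.16, -2.74 and -2.48 in Vehicle 1 to 4 (difference 1.19). Relative to Timp3, the log2 ratio of Timp1 ran from 0.19 to 1.33 with BAPN and from -0.93 to -0.17 with vehicle (difference 1.29). Relative to Timp4 it ran from 4.83 to 6.58 and from 3.20 to 4.45 (difference 1.67). In all 4 pairs every BAPN rat lay above every vehicle rat. Timp1 itself overlapped between the groups, whereas Timp2, Timp3 and Reck did not. Against the 11681 other tested genes, 27.9% of the ratios of Timp1 were higher in every BAPN rat than in every vehicle rat, so separation of this kind was common for Timp1. Ratios without overlap, in either direction, made up 43.2% for Reck, 39.2% for Timp2, 36.4% for Timp3 and 17.5% for Timp4. The 6 pairs without Timp1 overlapped between the groups, with differences from -0.06 (Timp4 to Reck) to 0.48 (Timp2 to Timp4). With 1 rat left out, the difference ran from -0.39 to 0.38 for Timp4 to Reck and from 0.03 to 0.75 for Timp2 to Timp4. For Timp3 to Timp4 it ran from -0.1 to 0.71. The difference was 0.10 for Timp2 to Timp3 (-0.09 to 0.27 with 1 rat left out), 0.32 for Timp3 to Reck (0.2 to 0.4) and 0.42 for Timp2 to Reck (0.25 to 0.51).

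**Figure D2:**
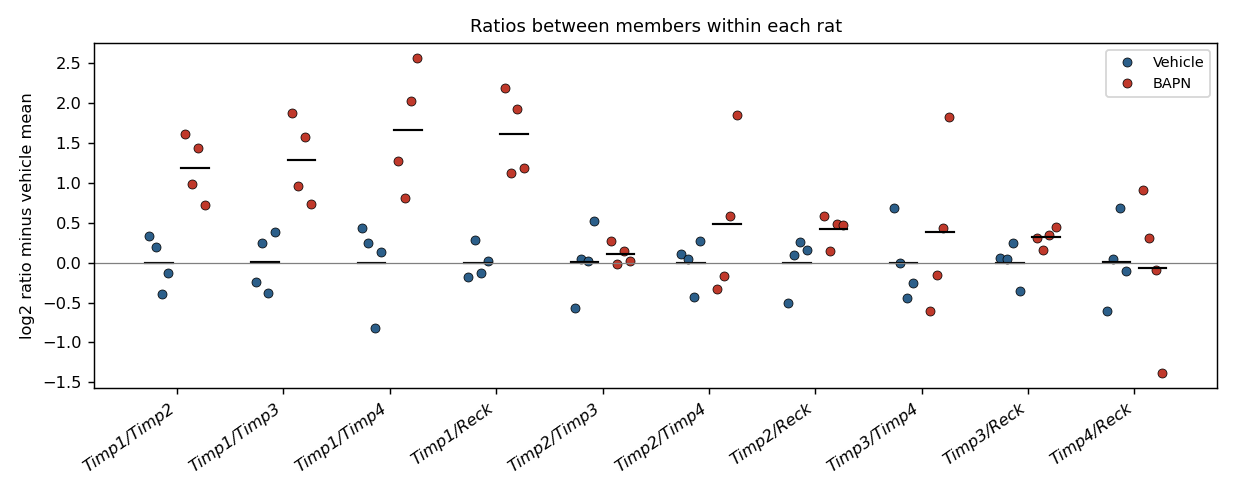
Log2 ratio of each pair of members in each rat, minus the vehicle mean of that pair, with horizontal bars for group means (4 rats per group). In the 4 pairs with Timp1, all BAPN rats lie above all vehicle rats, with differences between 1.19 and 1.67, and in the other 6 pairs the groups overlap.

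Genes that share the membrane complex of Reck were lower as well. Of 6 genes listed as Reck partners in Wnt7 signaling, 4 were tested and all 4 fell, with a median log2 fold change of -1.19 against 0.02 over all tested genes and a called background of 9.25% in this direction. The Wnt7 ligands themselves were near 0, with at most 1 read of Wnt7a and at most 11 reads of Wnt7b in any library. Adgra2, the adhesion receptor that pairs with Reck, had 67.5, 76.9, 41.1 and 66.3 CPM in BAPN 1 to 4 and 139, 112, 96.3 and 186 CPM in Vehicle 1 to 4. Its groups did not overlap, and it fell by 1.08 on the log2 scale (SE 0.24, edgeR FDR 0.0225). Fzd4, a Frizzled receptor, had 50.9, 31.4, 32.5 and 25.4 CPM with BAPN against 96.3, 54.6, 81.9 and 109.7 CPM with vehicle (log2 fold change -1.29, SE 0.25, edgeR FDR 0.0167). The coreceptor Lrp6 ranged from 30 to 75.6 CPM and from 104 to 187 CPM (log2 fold change -1.38, SE 0.31, edgeR FDR 0.0205). Its relative Lrp5 ranged from 36.7 to 51.8 CPM and from 65.9 to 107 CPM (log2 fold change -0.93, SE 0.18, edgeR FDR 0.0161). The log2 ratio of Adgra2 to Reck within a rat, a pair chosen after the values were seen, was 0.22 to 0.73 with BAPN and 0.34 to 0.95 with vehicle, and overlapped. Without Vehicle 1 none of the 4 partners was called (edgeR FDR 0.0612 for Adgra2, 0.0527 for Fzd4, 0.0516 for Lrp5 and 0.0606 for Lrp6), and without BAPN 4 Lrp6 was not (edgeR FDR 0.0504). Among females alone edgeR called none of the 4 partners, with FDR values from 0.102 to 0.125. All 4 had an unadjusted p under 0.05 in both fits, and DESeq2 on all rats called all 4.

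Some markers of cell types also differed between the groups, and sums over all listed markers of a type stand here beside the members. For comparison, edgeR called 9.25% of all tested genes lower and 7.5% higher with BAPN, and in 24.7% the groups did not overlap. The summed CPM of 5 endothelial markers was 427 to 535 with BAPN and 658 to 1416 with vehicle, without overlap, and Vwf and Tek fell among them. Of 7 smooth muscle markers, 4 fell (Myh11, Cnn1, Des and Smtn), with sums of 1631 to 4159.8 CPM and 3117 to 5863 CPM that overlapped. Of 6 fibroblast markers Cd34 fell, and the sums of 3238 to 4689 and 3494 to 6494 CPM overlapped. None of 7 macrophage markers was called by edgeR (2 at an unadjusted p under 0.05, 2 called by DESeq2), but their sums of 27009 to 40707 CPM with BAPN and 5316 to 22183 CPM with vehicle did not overlap, and most of it was Lyz2 (24109 to 38028 against 3861 to 19483 CPM). Of 6 T cell markers Cd2 and Cd8a rose, and the median log2 fold change was 1.35. The T cell sums overlapped (343 to 441 against 287 to 492 CPM) and were mostly Cd4, with a log2 fold change of -0.07. Of 2 tested B and plasma cell markers Cd79b rose, although it overlapped between the groups (0.731 to 7.85 CPM with BAPN, 0.346 to 1.94 CPM with vehicle), with sums of 6.49 to 178 and 11.4 to 35.3 CPM. Plin1 fell among 4 tested adipocyte markers, although it overlapped between the groups (4.91 to 10.9 CPM with BAPN, 4.54 to 61.3 CPM with vehicle). The adipocyte sums (1059.9 to 2925 against 436 to 1694 CPM) were mostly Fabp4, which had a log2 fold change of 0.70 (edgeR FDR 0.269), while those of Adipoq (-1.61, edgeR FDR 0.0647) and Cidec (-1.43, edgeR FDR 0.0626) were below 0. The sums of skeletal muscle (15.9 to 29.8 against 17.1 to 69.3 CPM), Schwann cell (46.3 to 278 against 55.9 to 108 CPM) and keratinocyte markers (4.47 to 15.4 against 7.17 to 15.3 CPM) overlapped, and edgeR called none of these 8 tested genes (2 at an unadjusted p under 0.05, 1 called by DESeq2). Over the 8 fits with 1 rat left out, Myh11, Tek and Cd2 were called in 8, Smtn and Cd8a in 4, Cnn1, Des, Vwf and Cd34 in 3, Cd79b in 2 and Plin1 in 1. Among females alone edgeR called 0 smooth muscle, 0 endothelial, 0 T cell and 0 fibroblast markers, with 2, 3, 5 and 2 at an unadjusted p under 0.05, and 2 each of the B and plasma cell and adipocyte markers. With sex as a covariate edgeR called 1 smooth muscle marker (Myh11), 2 endothelial markers (Vwf and Tek), 1 T cell marker (Cd2), 0 fibroblast markers (3 at an unadjusted p under 0.05), 0 B and plasma cell markers (0 at an unadjusted p under 0.05) and 3 adipocyte markers (Plin1, Adipoq and Cidec). Defining markers of the vein wall were present in every library, and none of the listed markers of any type was at 0 in all libraries. Library totals also followed the groups, at 45039451 to 52241007 reads with BAPN and 19548203 to 22442050 with vehicle (exact two-sided permutation p = 0.0286), so that the treatment and any difference in library preparation or sequencing between the groups cannot be told apart. After each library was thinned to the smallest total, Reck had a log2 fold change of -0.95 (edgeR FDR 0.0249). The part of the cell type markers in the levels of Reck and the TIMPs was not tested.

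The metalloproteinase families to which the targets of TIMPs and Reck belong (MMPs, ADAMs and ADAMTSs, not every member of which is inhibited by them) gave 7 called genes among 35 tested, all lower with BAPN (20% called, against 16.8% of all tested genes and 9.25% lower). Among the MMPs, 20 of 22 were listed, 13 were tested, 3 fell and none rose. The median log2 fold change was -0.55, with 7 of the 13 below 0 and 6 above it, the latter led by Mmp7 (1.26, edgeR FDR 0.152), Mmp13 (1.2, edgeR FDR 0.264) and Mmp9 (1.04, edgeR FDR 0.315). Mmp14, the membrane-anchored collagenase that works with Timp2, was at 659, 691, 478 and 639 CPM in BAPN 1 to 4 and at 1016, 778, 939 and 1503 CPM in Vehicle 1 to 4. The groups did not overlap, and it fell by 0.78 on the log2 scale (SE 0.22, edgeR FDR 0.0432). Mmp28, an epilysin, was at 2.55, 5.9, 2.26 and 1.59 CPM against 12.8, 10.6, 10.9 and 11.2 CPM (log2 fold change -1.88, SE 0.34, edgeR FDR 0.017). Mmp17, another membrane-anchored MMP, ranged from 3.14 to 8.99 CPM and from 9.54 to 21.6 CPM (log2 fold change -1.33, SE 0.35, edgeR FDR 0.0342). Mmp13, Mmp15 (log2 fold change -1.05, edgeR FDR 0.0599), Mmp17 and Mmp28 are among the genes that the study itself picked out from these rats. They were not all picked for the same direction, so the list is not independent evidence of a direction. The study reported Mmp13 as upregulated and Mmp15 as downregulated, whereas edgeR called neither here, and DESeq2 called Mmp15 but not Mmp13. Mmp11, which the study reported as downregulated, was matched to no gene name here. The MMPs with the highest counts did not pass the test, with log2 fold changes of 0.64 for the macrophage elastase Mmp12 (edgeR FDR 0.334) and -0.55 for the gelatinase Mmp2 (edgeR FDR 0.235). With 1 rat left out, Mmp12 ran from 0.3 to 0.93 and Mmp2 from -0.76 to -0.26 (without Vehicle 4). Mmp1 and Mmp21 had no read in any library.

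Of 8 tested ADAM sheddases 1 fell, Adam33 (4.96 to 9.5 CPM with BAPN, 11.9 to 27.2 CPM with vehicle, log2 fold change -1.40, SE 0.33, edgeR FDR 0.0246), and the median was -0.30. Adam17, which sheds tumor necrosis factor and is inhibited by Timp3, had a log2 fold change of 0.29 (edgeR FDR 0.187), and that of Adam19 was -0.31 (edgeR FDR 0.135). Among 14 tested ADAMTS proteases, 13 had a log2 fold change below 0, the median was -0.68, and 3 fell. The procollagen peptidase Adamts2 had 249, 240.4, 169 and 191 CPM in the BAPN veins and 485, 289.9, 472 and 553 CPM in the vehicle veins, without overlap (log2 fold change -1.08, SE 0.22, edgeR FDR 0.0169). The aggrecanase Adamts5 (-0.90, SE 0.25, edgeR FDR 0.0387) and Adamts10, linked to fibrillin microfibrils (-0.88, SE 0.21, edgeR FDR 0.0245), were the others, and Adamts15 had a log2 fold change of -0.32 (edgeR FDR 0.536). Leaving out Vehicle 1 changed the 7 protease calls to 0 (10 of 35 at an unadjusted p under 0.05), leaving out BAPN 3 to 2, leaving out BAPN 1 or BAPN 4 to 3, leaving out Vehicle 3 or Vehicle 4 to 4, and leaving out Vehicle 2 to 11. Over the 8 fits with 1 rat left out, Mmp28 and Adamts2 were called in 7, Adam33 and Adamts10 in 4, Mmp17 and Adamts5 in 2 and Mmp14 in 1.

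Inhibitor and target were set against each other within each rat for pairs chosen after the values were seen. The log2 ratio of Mmp2 to Timp2 differed by 0.03 between the groups, that of Mmp14 to Timp2 by -0.25 and that of Mmp9 to Timp1 by 0.69, and all 3 overlapped. The ratio of Adam17 to Timp3 was 0.09 to 0.45 with BAPN and -1.02 to -0.07 with vehicle, a difference of 0.89 without overlap. Of all tested genes, 36.4% had a ratio to Timp3 that did not overlap between the groups, in either direction.

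**Figure D3:**
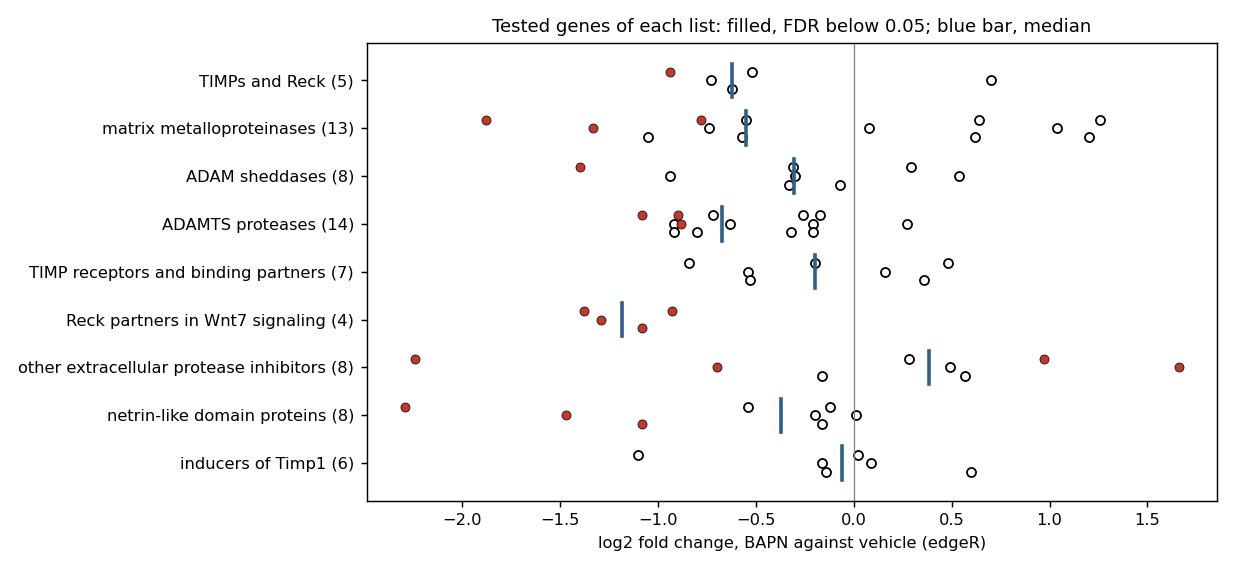
Log2 fold change (BAPN against vehicle, edgeR) of every tested gene in the member list and in 8 lists around it, with the number tested in brackets, filled circles for an FDR below 0.05 and a vertical bar for the median. The 7 protease calls and the 4 called Reck partners all lie below 0, and in the list of other extracellular protease inhibitors the called genes above 0 are Slpi and Tfpi2 and those below 0 are Spock2 and Serpinf1.

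A list of other extracellular protease inhibitors and members of their families had 8 tested genes, of which 2 rose, 2 fell and 4 did not pass, with a median log2 fold change of 0.38. The genes that rose, Slpi and Tfpi2, encode inhibitors, whereas those that fell, Spock2 and Serpinf1, are family members not known as protease inhibitors themselves. Slpi, an inhibitor of leukocyte elastase, was at 137, 96.6, 103 and 35 CPM in BAPN 1 to 4 and at 23.1, 32.2, 33 and 29 CPM in Vehicle 1 to 4. All BAPN rats lay above all vehicle rats, the male BAPN 4 only just, and Slpi rose by 1.66 on the log2 scale (SE 0.40, edgeR FDR 0.0187). Tfpi2, a Kunitz inhibitor of plasmin and other serine proteases, rose by 0.97 (SE 0.26, edgeR FDR 0.0198) from 8.03 ± 1.06 to 15.7 ± 3.59 CPM (SD, n = 4 per group). Spock2, a matrix proteoglycan of the testican family, fell from 5.75 ± 1.41 to 1.21 ± 0.462 CPM (SD, n = 4 per group, log2 fold change -2.24, SE 0.36, edgeR FDR 0.00962). Serpinf1, which encodes pigment epithelium-derived factor, a serpin without inhibitory activity, fell by 0.70 (SE 0.21, edgeR FDR 0.0493). The complement inhibitor Serping1 (0.57, edgeR FDR 0.321) and cystatin C, Cst3 (-0.16, edgeR FDR 0.597), had the highest counts and did not pass, and A2m was not tested, with at most 3 reads in a library.

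TIMPs share their fold with the netrin-like domains of other secreted proteins, and of 8 tested genes with such a domain 3 fell, with a median log2 fold change of -0.37. Ntn1, a secreted guidance protein, fell from 24.2 ± 22.0 to 4.92 ± 2.03 CPM (SD, n = 4 per group, log2 fold change -2.29, SE 0.58, edgeR FDR 0.0283). Vehicle 1 had 56.8 CPM of Ntn1, while Vehicle 2 to 4 had 8.96 to 16.5 CPM. Without Vehicle 1 its log2 fold change was -1.43 (edgeR FDR 0.0557). Ntn4 fell by 1.47 (SE 0.33, edgeR FDR 0.0217) and the Wnt modulator Sfrp2 fell by 1.08 (SE 0.29, edgeR FDR 0.0356), while Sfrp4 had a log2 fold change of -0.12 (edgeR FDR 0.68). None of the 7 receptors and binding partners of TIMPs was called by edgeR (2 at an unadjusted p under 0.05, 1 called by DESeq2), with a median of -0.20, the endocytic receptor Lrp1 at -0.53 (edgeR FDR 0.145), integrin Itgb1 at 0.16 (edgeR FDR 0.521) and Cd63, a tetraspanin that binds Timp1, at 0.48 (edgeR FDR 0.138). Of 6 tested inducers of Timp1 edgeR called none, none had an unadjusted p under 0.05, and DESeq2 called none and gave no p for 1. Among females alone edgeR called 1, the cytokine Il1b (log2 fold change 1.68, edgeR FDR 0.0422). Over all rats the inducers had a median of -0.06, with 3 of the 6 below 0. Tgfb1 was at -0.16 (edgeR FDR 0.601) and Junb at -0.14 (edgeR FDR 0.78). Fos was the lowest at -1.1 (edgeR FDR 0.293) and Il1b the highest at 0.6 (edgeR FDR 0.297). In the 5 lists other than proteases, 11 of 33 tested genes were called (33.3%, 9 lower and 2 higher, against 16.8% of all tested genes, 9.25% lower and 7.5% higher), which became 1 (Spock2) without Vehicle 1, 6 without BAPN 3 and 6 without BAPN 4. Over the 8 fits with 1 rat left out, Slpi was called in 7, Tfpi2 in 6, Ntn4 in 5, Ntn1 in 4, Sfrp2 in 2 and Serpinf1 in 1.

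The synapsin genes that hold Timp1, Timp3 and Timp4 had few reads. Syn1 had 68 to 189 reads per library (log2 fold change -0.55, edgeR FDR 0.217), Syn2 had 0 to 39 and Syn3 0 to 15. The libraries were stranded, but the strand setting of the counting is not given in the sources used here. Syn1 and Syn2 lie on the opposite strand from Timp1 and Timp4, and reads of overlapping genes may have been split between them.

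The genes whose profiles over the 8 rats were most like each member were found by the root mean square (RMS) difference in log2 CPM, each profile centred on its own mean, among tested genes with a symbol. The nearest to Reck included Ppl, which encodes periplakin (RMS difference 0.121, log2 fold change -0.97, edgeR FDR 0.0253), and Hs3st1, a heparan sulfate sulfotransferase (0.132, log2 fold change -1.09, edgeR FDR 0.0157). For Timp1 they were Ckap2 (RMS difference 0.121), Slc39a14, a zinc and iron transporter (0.177), and Tmem154 (0.197). For Timp2 they were Mid2 (0.075), Ubqln2 (0.078) and Erc1 (0.078), the closest matches of any member. The nearest to Timp3 were the lactate dehydrogenase subunit Ldhb (RMS difference 0.141), Abca8a (0.146) and Plekha6 (0.148), and to Timp4 the collagen prolyl 3-hydroxylase P3h2 (0.283), Adarb1 (0.291) and Itga3 (0.300), the least close. The profiles include the difference between the groups, and 8 rats are few, so these are descriptions of likeness only.

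Each fold change was computed again under 18 other settings, of which 8 left out 1 rat. All 5 members kept their direction in all 18. Reck was called in 11 of them, Timp3 in 3, Timp1 and Timp2 in 1 each (DESeq2), and Timp4 in none.

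**Figure D4:**
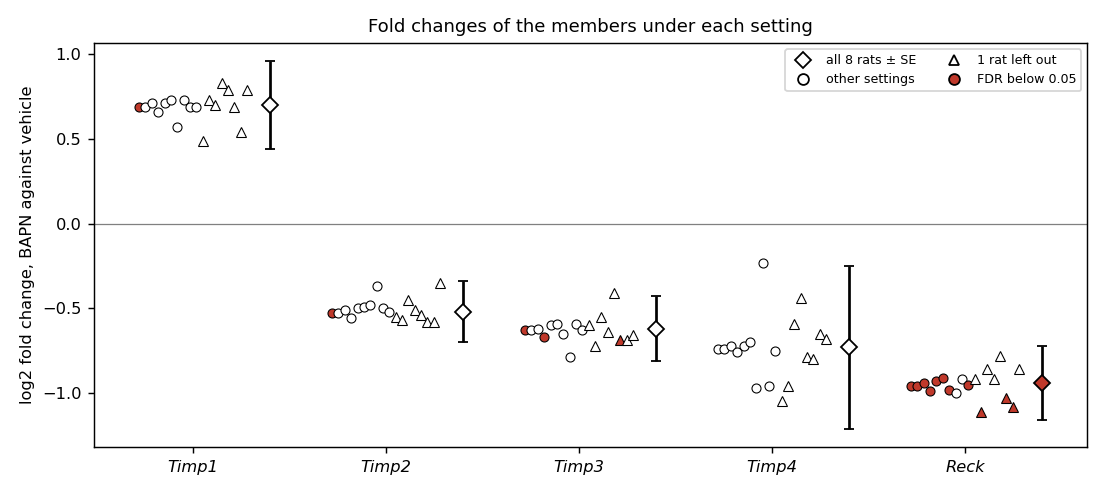
Log2 fold change of each member (BAPN against vehicle) over all 8 rats (diamond, with bars of ± SE from limma-voom), under other settings (circles) and with 1 rat left out (triangles), filled where the FDR was below 0.05. Timp1 stays above 0 and the other 4 members below 0 throughout, and Reck is filled most often.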

How the data were processed

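RNA of 8 outflow veins was ground, extracted with Trizol and sequenced by the authors from ribosomal RNA-depleted, stranded total RNA libraries. The submitters' processing notes name bcl2fastq 2.17, Trim Galore and STAR; the counter, its strand setting and the genome build are not given in the sources used here. The authors deposited raw counts of reads per Ensembl gene, 1 file per rat, without normalization. Groups, replicate numbers and sex came from the sample labels, which name no batches or dates. Library totals were 45039451 to 52241007 with BAPN and 19548203 to 22442050 with vehicle, and libraries of the same group differed by more than counting noise in every pair (chi-square 68.58 to 320.8 per degree of freedom). PCR duplicates were not marked by molecular identifiers.

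Genes passed when their base mean (DESeq2 size factors) reached 100, the filter of the study, and were tested with edgeR 4.0.16 (TMM, quasi-likelihood F test, no covariate) in R 4.3.3, with Benjamini-Hochberg adjustment and a threshold of 0.05. SEs came from limma 3.58.1, and log2 CPM used a prior count of 2. DESeq2 1.42.0 was an alternative, as the study names a DESeq plug-in. The other alternatives were other scaling factors, other filters, a sex term, the female rats only, a block for the replicate number, thinning, and leaving out each rat. On simulated counts of the comparison of BAPN with vehicle (11682 genes, of which 200 were given a log2 change of 1.5) edgeR recovered 164 with 6 false calls and DESeq2 183 with 45. 177 gene names stand for more than 1 listed gene, but each member's name for 1. Mmp11, Mmp25, Pcolce2 and Pecam1 were matched to no gene name and are not analysed here. Named genes were the members, the 3 genes most like each (of which 1 is not reported here), every called gene of each list and the 2 genes of each list with the highest mean. Cd4, Cd63, Lyz2, Mmp7, Mmp9, Mmp13, Mmp15, Il1b, Fos, Fabp4, Adipoq and Cidec were named after their values were seen. Members and lists were chosen with earlier results of these data known. Promoters were read from RefSeq GRCr8, which may differ from the build of the counts. Protein sequences were not used here.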

Additional observations from a re-analysis of the deposited data

Results flagged for a closer look

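In Vehicle 1, Timp3 was at 416 CPM against 249 to 273 CPM in the other vehicle rats. Its gap to the nearest rat was 0.859 of the range of the group, above the 95% critical value of Dixon's test for 4 samples. This test flags about 1 group in 20 by chance, and 10 groups (5 genes in each treatment) were looked at. Without Vehicle 1 the log2 fold change of Timp3 was -0.41 (edgeR FDR 0.117) in place of -0.62.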

How the results depend on the processing

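edgeR called 876 genes higher and 1081 lower. With DESeq2 the counts were 1439 and 1763, with total counts in place of TMM 504 and 1161 (a smaller share higher), with sex as a covariate 389 and 541, and among females alone 35 and 54. With 1 rat left out they ran from 150 (without Vehicle 1) to 927 (without Vehicle 2) and from 247 to 1288. The 7 protease calls became 3 with sex as a covariate and 0 among females alone (0 to 11 with 1 rat left out), and the 11 calls of the other lists became 3 among females alone (1 to 11). The replicate numbers did not pair the rats, since same-numbered rats correlated between -0.265 and 0.269 in their deviations from the group means, 1 of 4 pairs was over 0.1, and 3 of 8 rats correlated best with their own number. With the replicate number as a block, edgeR called 200 genes higher and 356 lower, 2 proteases and 7 genes of the other lists, and Reck had a log2 fold change of -0.92 (FDR 0.0614). Among females alone that of Reck was -1.0 (edgeR FDR 0.107). Timp1 (0.69, FDR 0.0385), Timp2 (-0.53, FDR 0.0144) and Timp3 (-0.63, FDR 0.0126) passed the threshold in DESeq2, and Timp3 also with total counts (-0.67, edgeR FDR 0.0492) and without Vehicle 2. With 1 rat left out the log2 fold changes ran from 0.49 to 0.83 for Timp1, -0.58 to -0.35 for Timp2, -0.72 to -0.41 for Timp3, -1.05 to -0.44 for Timp4 and -1.11 to -0.78 for Reck. The differences in log2 ratio ran from 1.05 to 1.35 for Timp1 to Timp2, 1.09 to 1.47 for Timp1 to Timp3, 1.37 to 1.96 for Timp1 to Timp4 and 1.41 to 1.77 for Timp1 to Reck. Among the pairs without Timp1, those of Timp2 to Timp3 (down to -0.09), Timp3 to Timp4 (down to -0.1) and Timp4 to Reck (up to 0.38) turned sign. With profiles divided by their SD, Timp2 kept 1 of its 3 nearest genes and Timp3 kept 0. Over 30 named genes of the lists, 438 of 539 fits kept direction and side of the threshold, 93 lost the call and 8 turned: Mmp12 (-0.22), Adamts15 (0.34), Serping1 (-0.23) and Junb (0.38) among females alone, Junb also with sex as a covariate (0.04) and without Vehicle 3 (0.29), Sfrp4 without Vehicle 4 (0.01) and Tgfb1 without Vehicle 2 (0.01). With 1 rat left out Tgfb1 ran from -0.33 to 0.01 and Junb from -0.34 to 0.29. Spock2 was not tested after thinning, where its base mean was under 100. The cause of these changes was not tested, beyond the smaller number of rats in some fits. Only 1 BAPN male was available.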
